A study of Mus musculus with 16 samples.

Results

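The 9 genes examined here form the core of the TGF-beta pathway. They are the 3 ligands *Tgfb1*, *Tgfb2* and *Tgfb3*, the 2 signalling receptors *Tgfbr1* and *Tgfbr2*, the receptor-activated SMADs *Smad2* and *Smad3*, the common partner *Smad4* and the inhibitory *Smad7*. They were taken by gene name, and all 9 were found among the 23609 genes of the RNA-seq table and passed the filter that left 21034 genes for testing. None of the 9 passed the test between gene trap and wildtype tumors, and neither did any other of the 21034 tested genes. Their levels differed widely from each other, and *Tgfb3* was the most abundant of the 9 per length in every tumor.

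TGF-beta ligands are secreted in a latent form, held by their own propeptide and by binding proteins of the matrix, and must be released before they bind a receptor. The active ligand binds TGFBR2, which phosphorylates TGFBR1, and TGFBR1 then phosphorylates SMAD2 and SMAD3. These join SMAD4 and enter the nucleus to act on target genes, and SMAD7, itself a target gene, blocks the receptor. In the mammary gland TGF-beta restrains the growth of epithelial cells, and in mammary tumors it is also known for promoting invasion and a change of epithelial cells toward a mesenchymal state.

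Total RNA was measured in primary mammary tumors of mice that all carried MMTV-PyMT, the polyoma middle T antigen driven in the mammary gland by the MMTV promoter. The gene trap x PyMT mice were also heterozygous for *Resf1* (Resf1 +/-), through a lentiviral enhancer/gene trap in the first exon of the gene that expresses an EGFP-cre fusion, and the wildtype x PyMT mice were their littermates. The trap was carried on C57BL/6 and crossed to FVB mice, it is present in every cell of the animal and not only in the tumor, and the labels give no treatment other than "none" and no age. The values came from 5 wildtype and 5 gene trap tumors, each described by the labels as a separate tumor sample. The values are estimated counts that the authors had scaled between tumors by the median ratio method, called normalized values below, and no depth can be read from them.

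*Resf1*, the gene that carries the trap, checks the labels. The trap gene averaged 4099 ± 400 (SD, n = 5) normalized counts in wildtype tumors against 3516 ± 361 (SD, n = 5) with the trap, and 3 of the gene trap tumors lay below the lowest wildtype tumor. This is -0.22 on the log2 scale (standard error 0.09), with an unadjusted limma p of 0.0313, an adjusted p of 0.9997 and an exact permutation p of 0.0635, so the check did not pass the test over all genes. *Resf1* was lowest in gene trap replicate 2, at 3066, and without that tumor the log2 difference was -0.17, with an unadjusted limma p of 0.0684. Leaving out single tumors kept the difference between -0.28 and -0.17. The epithelial markers *Epcam*, *Krt8*, *Krt18* and *Cdh1* were high in every tumor, with *Epcam* between 19190 and 25278. Markers of stroma were present as well, with *Col1a1* between 5802 and 17969, *Csf1r* between 1533 and 2465 and *Pecam1* between 786 and 1672. The T cell marker *Cd3e* was between 3.68 and 32.5. In such bulk tumors, fewer cells of a type and less RNA per cell cannot be told apart. Gene trap replicate 2 lay far from the remaining tumors, at 91.8 on the leading principal component against -18.6 to -4.78, and the values of the 9 genes are given with and without it.

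The 3 ligands are encoded on different chromosomes and their mature parts are close relatives. The end of the coding region, which encodes the last residues of the secreted ligand, is printed because it makes that kinship visible and shows how the genes differ in base composition. Each line holds the last 30 codons before the stop codon, 5′ to 3′, from the GRCm38 reference genome with GENCODE mouse release 21, and capitals mark a G or C at the third codon position. The *Tgfb1* stretch lies in a coding exon at chr7:25704850-25704939 on the plus strand, that of *Tgfb2* at chr1:186625451-186625540 on the minus strand and that of *Tgfb3* at chr12:86057783-86057872 on the minus strand.
Tgfb1: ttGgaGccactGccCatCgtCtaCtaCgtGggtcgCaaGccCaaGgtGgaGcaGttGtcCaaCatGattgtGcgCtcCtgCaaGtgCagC
Tgfb2: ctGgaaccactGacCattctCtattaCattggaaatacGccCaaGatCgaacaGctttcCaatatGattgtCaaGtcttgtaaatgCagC
Tgfb3: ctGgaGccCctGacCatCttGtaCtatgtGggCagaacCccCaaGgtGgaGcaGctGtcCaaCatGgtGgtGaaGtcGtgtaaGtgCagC
Of the 90 bases, 64 were the same in *Tgfb1* and *Tgfb2*, 71 in *Tgfb1* and *Tgfb3*, and 67 in *Tgfb2* and *Tgfb3*. A G or C stood at the third position of 27 codons in *Tgfb1*, 16 in *Tgfb2* and 27 in *Tgfb3*. Over the longest protein-coding transcript the GC content was 62.5% for *Tgfb1*, above 98.8% of the tested genes, 46.9% for *Tgfb2* and 53.0% for *Tgfb3*. In the same annotation short exons of other genes on the opposite strand overlap *Tgfb2* by 124 bases and *Tgfb3* by at most 257 bases. The library kit keeps the strand, but whether the counting used it is not stated.

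*Tgfb3* had by far the highest level of the 9 genes. Values of different genes were compared per kilobase of the longest protein-coding transcript, over all 10 tumors. *Tgfb3* was at 2890 ± 447 (SD, n = 10) normalized counts per kilobase, above 97.0% of the tested genes with an annotated length, and it stood above every other member in 10 of 10 tumors. The receptors followed, with *Tgfbr2* at 654 ± 66 per kilobase and *Tgfbr1* at 595 ± 48, and *Tgfbr2* was the higher of the pair in 9 of 10 tumors. Then came *Smad4* at 529 ± 57 and *Smad3* at 409 ± 36 per kilobase. *Tgfb2*, at 250 ± 30, was above *Smad2*, at 223 ± 18, in 7 of 10 tumors, and these neighbours lie within 1 SD of each other, as do the receptors. *Tgfb1* was at 169 ± 45 per kilobase, near the middle of the tested genes and above 52.5% of them, and *Smad7* was lowest at 97.2 ± 16. The order of the lower members depends on which length is used. Per kilobase of coding sequence *Smad2* (1286 ± 104) stood above *Smad4* (1083 ± 116), and *Tgfb1* (315 ± 84) was lowest, below *Smad7* (325 ± 54). *Tgfb3*, *Tgfbr2* and *Tgfbr1* led in this order by every length used.

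**Figure D1:**
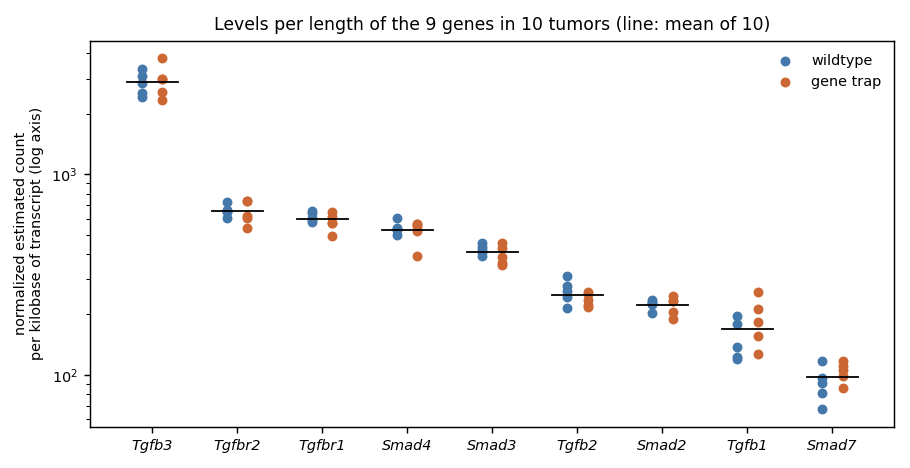
Normalized estimated count per kilobase of the longest protein-coding transcript, on a log axis, for each of the 9 genes in 5 wildtype and 5 gene trap tumors. Each point is a tumor and each line the mean of 10 tumors, and *Tgfb3* lies between 2345 and 3784, above all other members.

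Expressed as a share of the 3 ligands' summed level per kilobase, *Tgfb3* made up 87.3% ± 0.89 (SD, n = 10) and lay between 85.6% and 88.2% in the single tumors. *Tgfb2* made up 7.66% ± 1.28 and *Tgfb1* 5.06% ± 0.72. All 3 shares depend on the length used. These are shares of RNA and not of secreted or active protein. The *Tgfb1* share was 4.44%, 5.13%, 4.26%, 5.10% and 4.00% in wildtype replicates 1 to 5 and 4.73%, 6.00%, 6.23%, 5.23% and 5.44% in gene trap replicates 1 to 5. Thus 4 gene trap tumors lay above the highest wildtype tumor, while gene trap replicate 1 lay within the wildtype range. The means were 4.59% ± 0.51 (SD, n = 5) and 5.53% ± 0.60 (SD, n = 5), a difference of 0.936 percentage points. The exact two-sided permutation test gave p = 0.0397, and p = 0.119 after adjustment over the 3 shares, so the difference did not pass. Leaving out each tumor in turn kept the difference between 0.761 and 1.14 points. Whether the unadjusted exact p was under 0.05 depended on the tumor left out. This p was 0.0635 to 0.0794 for 7 of the 10 tumors and 0.0159 to 0.0317 for the rest. The shares of *Tgfb2* (exact p = 0.317) and *Tgfb3* (exact p = 0.905) did not pass either.

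Whether the ligands differed between gene trap and wildtype tumors was examined gene by gene. *Tgfb1*, the ligand most often linked to immune cells and platelets, had normalized values of 266, 426, 300, 391 and 260 in wildtype replicates 1 to 5 and of 277, 561, 464, 339 and 401 in gene trap replicates 1 to 5. Gene trap replicates 2 and 3 were above every wildtype tumor, and the other 3 lay within the wildtype range. On the log2 scale the difference, gene trap minus wildtype, was 0.30 (standard error 0.20, 95% interval -0.14 to 0.74), with an unadjusted limma p of 0.160 and an exact permutation p of 0.214. Without gene trap replicate 2 it was 0.18. Of the 9 genes *Tgfb1* varied most between tumors, with a coefficient of variation of 26.7% over the 10 tumors against a median of 12.6% over tested genes that average 100 or more. Of the markers of its known sources, 7 of 9 macrophage genes had a fold change below 0, against 48.6% of all tested genes. In limma's test 0 of these 9 had an unadjusted p under 0.05, against 2.28% of all tested genes. The summed level of the macrophage genes was 14586 to 24132 in wildtype and 15739 to 22043 in gene trap tumors. Of 5 platelet markers 2 were tested, with summed levels of 186 to 242 and 147 to 293. The part of these cells in the *Tgfb1* values was not tested.

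*Tgfb2*, the ligand of the family with the lowest affinity for TGFBR2 alone, had values of 1103, 1421, 1257, 1339 and 1592 in wildtype and 1137, 1291, 1206, 1321 and 1109 in gene trap replicates 1 to 5. All gene trap tumors lay within the wildtype range. Its log2 fold change was -0.14 (standard error 0.10, 95% interval -0.36 to 0.08), and -0.16 without gene trap replicate 2, and the exact permutation p of the 10 tumors was 0.206. *Tgfb3*, which is known from mammary involution and palate closure, had values of 8176, 11300, 9659, 10415 and 8624 in wildtype and 7932, 12800, 10075, 8675 and 10107 in gene trap replicates 1 to 5. The lowest and the highest value of the 10 were both in gene trap tumors. The difference of all 10 tumors on the log2 scale was 0.03 (standard error 0.13, 95% interval -0.25 to 0.32), and it was -0.06 without gene trap replicate 2.

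*Tgfbr1* lies at chr4:47353222-47414931 on the plus strand and *Tgfbr2* at chr9:116084293-116175360 on the minus strand of GRCm38. *Tgfbr1*, the type I receptor that carries the signal to the SMADs, had values of 3478, 3406, 3672, 3320 and 3754 in wildtype and 3711, 2822, 3282, 3279 and 3528 in gene trap replicates 1 to 5. Gene trap replicates 2, 3 and 4 were below every wildtype tumor and the other 2 were within the wildtype range. On the log2 scale the difference was -0.09 (standard error 0.08, 95% interval -0.26 to 0.08) and -0.03 without gene trap replicate 2. *Tgfbr2*, the type II receptor that binds the ligand, had values of 5384, 5899, 5274, 5337 and 4892 in wildtype and 5959, 4376, 5984, 4870 and 4982 in gene trap replicates 1 to 5. Its gene trap values spread to both sides of the wildtype range, with 2 tumors above and 2 below it. Its log2 fold change was -0.04 (standard error 0.09, 95% interval -0.25 to 0.17), and 0.02 without gene trap replicate 2.

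*Smad2* and *Smad3* carry the signal from TGFBR1. *Smad2*, on chromosome 18, had values of 1909, 1827, 1642, 1858 and 1817 in wildtype and 1895, 1532, 1878, 1662 and 2004 in gene trap replicates 1 to 5. The groups overlapped on both sides, and the log2 difference was -0.02 (standard error 0.08, 95% interval -0.20 to 0.16), and 0.04 without gene trap replicate 2. *Smad3*, at chr9:63646767-63757994 on the minus strand of GRCm38, had values of 2083, 1985, 2203, 2305 and 2144 in wildtype and 1829, 1977, 2192, 2303 and 1794 in gene trap replicates 1 to 5. Gene trap replicates 1, 2 and 5 were below the lowest wildtype tumor. Its difference on the log2 scale was -0.09 (standard error 0.08, 95% interval -0.27 to 0.09), with and without gene trap replicate 2.

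*Smad4*, the partner shared by all receptor-activated SMADs, lies on chromosome 18. Its values were 1774, 1830, 1803, 2046 and 1679 in wildtype and 1772, 1323, 1859, 1913 and 1908 in gene trap replicates 1 to 5. Gene trap replicate 2 was the lowest of the 10 and the other 4 gene trap tumors lay within the wildtype range. On the log2 scale the difference was -0.07 (standard error 0.10, 95% interval -0.30 to 0.16) with the 10 tumors and 0.03 without gene trap replicate 2. *Smad7*, the inhibitor of the receptor and on the same chromosome, had values of 413, 391, 347, 501 and 288 in wildtype and 369, 499, 422, 474 and 454 in gene trap replicates 1 to 5. All gene trap tumors lay within the wildtype range. Its log2 fold change was 0.21 (standard error 0.14, 95% interval -0.10 to 0.52), and 0.16 without gene trap replicate 2. With all 10 tumors the unadjusted limma p was 0.173 and the exact permutation p was 0.214.

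**Figure D2:**
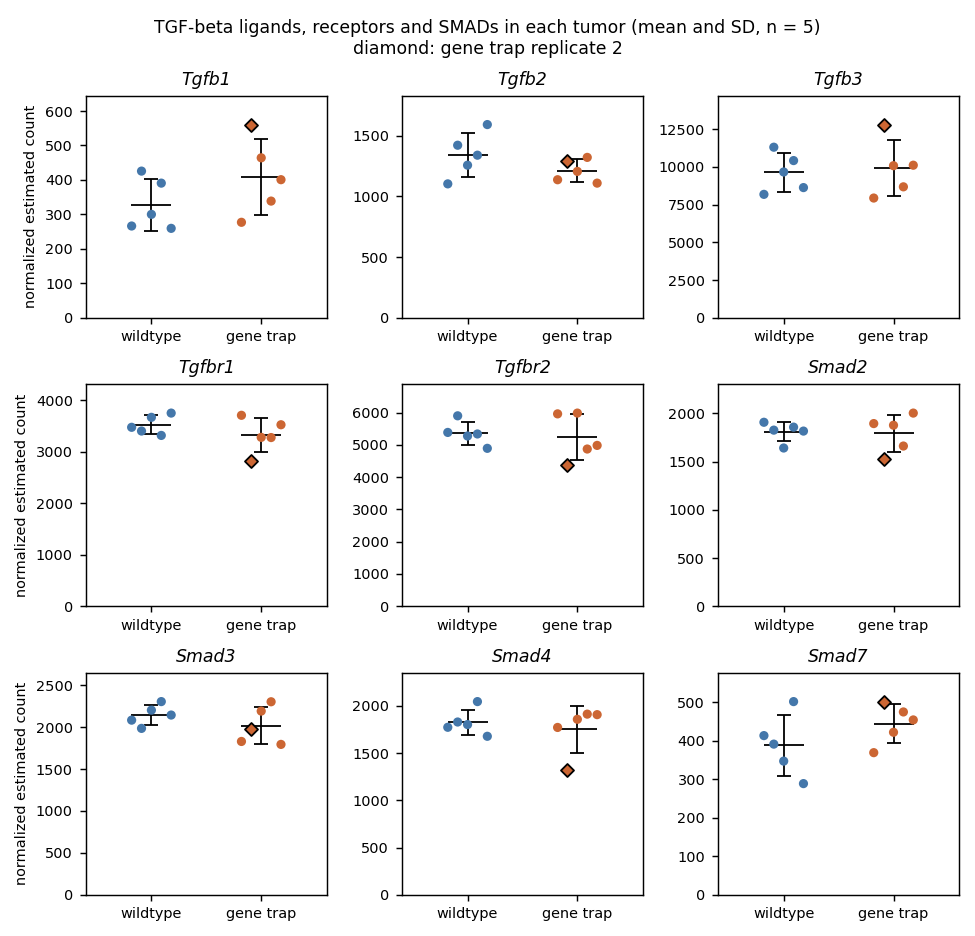
Normalized estimated count of each of the 9 genes in each tumor, with axes that start at 0. Points are tumors, the horizontal mark and bar give the mean and SD of 5 tumors, and the diamond is gene trap replicate 2, which is the highest point for *Tgfb1* and *Tgfb3* and the lowest for *Tgfbr1*, *Tgfbr2*, *Smad2* and *Smad4*. The groups overlap in every panel.

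Across the pathway core, 6 of the 9 genes had a fold change below and 3 above 0, with a median of -0.04 on the log2 scale against 0.00467 over all tested genes. With limma and Benjamini-Hochberg adjustment, 0 of the 9 had an adjusted p under 0.05, and so had 0% of the 21034 tested genes, where the smallest adjusted p was 0.9997. At an unadjusted p under 0.05, 0 of the 9 were called against 2.28% of all tested genes (479 genes, 278 of them higher and 201 lower with the trap). The groups did not overlap for 0 of the 9 and for 0.528% of all tested genes. Exact p values of the 9 genes lay between 0.206 and 0.873, where 5 against 5 tumors can reach 0.00794. The 95% intervals were taken gene by gene and not jointly: across the 9 genes their limits lay between 0.782-fold for *Tgfb2* and 1.67-fold for *Tgfb1*. Outside the ligand *Tgfb1* and the inhibitor *Smad7*, the upper limits lay between 1.05-fold and 1.24-fold.

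**Figure D3:**
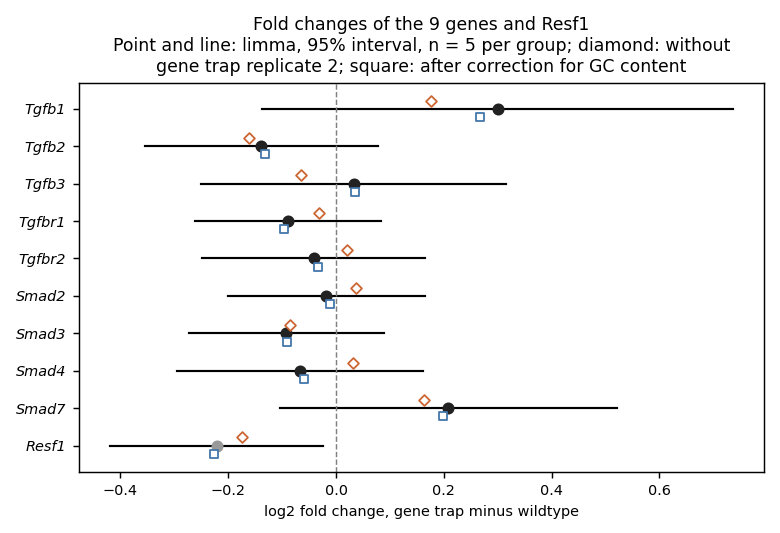
Log2 fold change, gene trap minus wildtype, of the 9 genes and of *Resf1*, with the 95% interval from limma over 5 tumors per group. Diamonds leave out gene trap replicate 2 and squares are after correction for GC content. The intervals of all 9 pathway genes include 0, and *Tgfb3*, *Tgfbr2*, *Smad2* and *Smad4* have their diamond on the other side of 0.

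The rest of the pathway was described through 8 lists with 99 distinct genes, of which 96 were in the table and 92 were tested. Of the 92, 42 had a fold change above and 50 below 0, with a median of -0.02. In limma's test 0 of the 92 had an unadjusted p under 0.05. Over all tested genes, 48.6% were below 0 and 2.28% had an unadjusted limma p under 0.05. Among the 11 genes that hold or release the latent ligand, 6 were above and 5 below 0. *Thbs1*, thrombospondin 1, an activator of latent TGF-beta, was at 17537 ± 4312 in wildtype and 14691 ± 2284 in gene trap tumors (log2 difference -0.23, standard error 0.18). *Furin*, the protease that cleaves the propeptide, was at 3347 ± 776 and 3868 ± 854 (log2 fold change 0.21, standard error 0.18). The co-receptors *Tgfbr3*, or betaglycan, and *Eng*, endoglin, had log2 fold changes of -0.04 and -0.07, the latter -0.02 without gene trap replicate 2. The endothelial type I receptor *Acvrl1* had one of 0.16.

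Of the SMADs outside the 9, *Smad1* and *Smad5*, which carry BMP signals, had log2 fold changes of -0.04 and 0.07, and the inhibitory *Smad6* had one of -0.03. *Smad9* was near the filter at 10.6 ± 5.47 in wildtype and 12.1 ± 3.55 in gene trap tumors. Of the 18 genes that regulate SMADs or receptors, 7 were above and 11 below 0, all between -0.11 and 0.07. The lowest were *Strap*, which binds the receptors and SMAD7, at -0.11 and at -0.0032 without gene trap replicate 2, and *Zfyve9*, the anchor protein that brings SMADs to the receptor, at -0.11 and -0.07.

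Of 25 genes known to be induced or repressed by TGF-beta, 11 were above and 14 below 0, with a median of -0.05. Their log2 fold changes ran from -0.43 to 0.28. Induced and repressed genes are pooled here, so these counts give no direction of the pathway's output. *Acta2*, smooth muscle actin, was at 2158 ± 629 in wildtype and 1591 ± 367 in gene trap tumors, a log2 difference of -0.43 (standard error 0.20, unadjusted limma p = 0.0505, exact permutation p = 0.103), and -0.28 without wildtype replicate 4. *Ccn2*, connective tissue growth factor, was at 3713 ± 1086 and 2829 ± 603, a log2 difference of -0.36 (standard error 0.21, exact permutation p = 0.175), and -0.26 without gene trap replicate 2. The groups overlapped for both genes. Of the target genes, 3 collagens (*Col1a1*, *Col1a2* and *Col3a1*) are also fibroblast markers. Myoepithelial cells also express *Acta2*, and all 6 myoepithelial markers (*Krt5*, *Krt14*, *Trp63*, *Krt17*, *Oxtr* and *Myh11*) had a fold change below 0, 2 of them with an unadjusted p under 0.05 (*Krt17* at -0.63 and *Myh11* at -0.67, or -0.52 and -0.69 without gene trap replicate 2). Over all tested genes 48.6% were below 0 and 2.28% had an unadjusted p under 0.05. Their summed level was 5623 to 7529 in wildtype and 4155 to 5783 in gene trap tumors, and no marker of the list was at 0. Their part in the *Acta2* values was not tested.

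The related ligands and receptors gave no call either. Of 17 tested activin, BMP and GDF ligands, 10 were above and 7 below 0, and the widest differences were in genes with low values. *Bmp5* was at 25.4 ± 31.2 in wildtype and 7.58 ± 4.30 in gene trap tumors (log2 difference -1.20, standard error 0.60), and *Gdf10* at 62.7 ± 48.3 and 29.5 ± 15.8 (-0.94, standard error 0.54). Wildtype replicate 3 had 80.7 for *Bmp5*, where the other wildtype tumors had 7.75 to 18.8, and 138.5 for *Gdf10*, against 21.9 to 81.2. Without it *Bmp5* dropped under the filter and *Gdf10* was at -0.57. All 9 activin, BMP and AMH receptors had a fold change below 0, between -0.23 for *Acvr1c* and -0.02 for *Acvr1*, where 48.6% of all tested genes were below 0. None of these receptors had an unadjusted p under 0.05, and *Acvr1c* was at 0.02 without wildtype replicate 3. *Amhr2* had a log2 fold change of -0.21, and of -0.05 without gene trap replicate 2. Of 9 tested extracellular antagonists, 5 were above and 4 below 0, among them *Chrdl1* at -0.35 (standard error 0.30) and the activin antagonist *Fst* at -0.21 (standard error 0.18), or -0.10 without gene trap replicate 2.

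**Figure D4:**
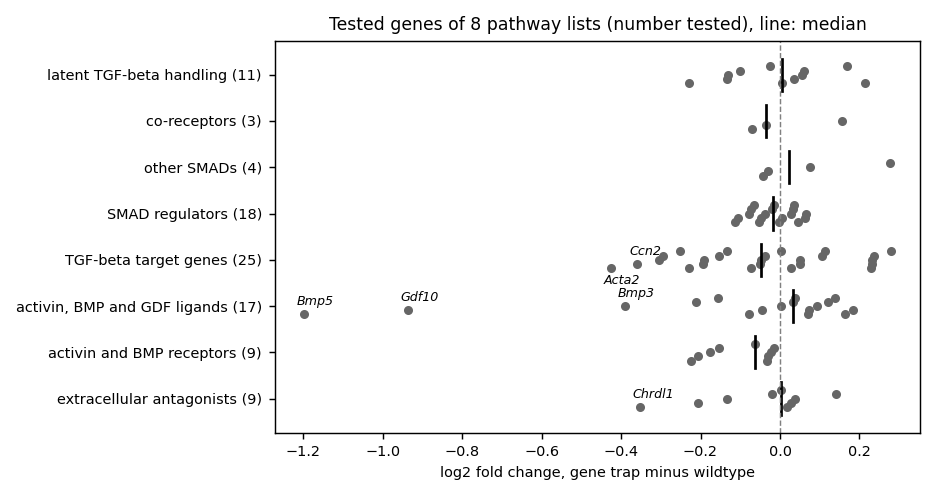
Log2 fold change, gene trap minus wildtype, of the tested genes in each of the 8 pathway lists. Each point is a gene and each vertical line the median of its list, and the list medians lie between -0.06 and 0.03.

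How the 9 genes varied together over the 10 tumors was described by 117 correlations, 36 between members, 72 of members with the scores of 8 cell type marker lists and 9 with the GC tilt defined below. After adjustment over the 117, 0 had p under 0.05, and 12 had an unadjusted p under 0.05. With all 10 tumors the closest pair was *Tgfb1* and *Tgfb3*, with Pearson's r = 0.90 (permutation p = 0.0006, adjusted p = 0.0702). Their Spearman coefficient was 0.85 (permutation p = 0.00298). Without the 2 tumors farthest from the median of *Tgfb1*, gene trap replicate 2 and wildtype replicate 5, r was 0.84, and it was also 0.84 without gene trap replicate 2 alone. *Tgfb1* and *Tgfbr1* were related in the opposite direction, with r = -0.83 (permutation p = 0.00197, adjusted p = 0.115) and a Spearman coefficient of -0.75, and r = -0.64 without the same 2 tumors. *Tgfbr1* and *Smad7* had r = -0.76 (adjusted permutation p = 0.184) and a Spearman coefficient of -0.82, and r = -0.75 without the same 2 tumors. *Smad4* and *Smad7* had r = 0.03 over the 10 tumors (adjusted permutation p = 0.997), with a Spearman coefficient of 0.50. Without gene trap replicate 2 their r was 0.91, above the 0.84 of *Tgfb1* and *Tgfb3*.

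The base composition of the tumors' profiles was described by a GC tilt. The GC tilt of a tumor is the Spearman correlation, across tested genes with an annotation, between the GC content of the transcript and the log2 deviation from the mean of the 10 tumors. It was -0.258, 0.264, 0.0881, 0.192 and -0.281 in wildtype and -0.357, 0.214, -0.0137, 0.108 and -0.0929 in gene trap replicates 1 to 5. Across tumors the tilt had r = 0.73 with *Tgfb1* (permutation p = 0.0217, adjusted p = 0.254), whose transcript is among the most GC rich. It had r = 0.81 with *Tgfb3* (permutation p = 0.00541, adjusted p = 0.130), and r = -0.64 with *Tgfbr1*, whose transcript has a GC content of 41.0%, above only 10.4% of tested genes. None of these passed adjustment. After the log2 values were corrected for GC content, r with the uncorrected tilt was 0.49 for *Tgfb1* and 0.75 for *Tgfb3*. With the same correction r of *Tgfb1* and *Tgfb3* was 0.76, that of *Tgfb1* and *Tgfbr1* was -0.57 and that of *Tgfbr1* and *Smad7* was -0.57.

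**Figure D5:**
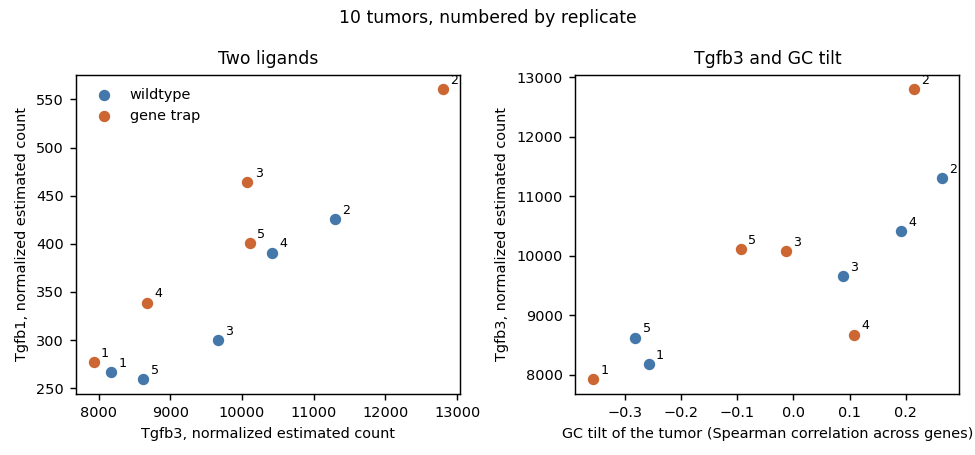
*Tgfb1* against *Tgfb3* in normalized estimated counts (left) and *Tgfb3* against the GC tilt of the tumor, a rank correlation across genes (right). Each point is a tumor with its replicate number, and gene trap replicate 2 has the highest value of both ligands at a tilt of 0.214.

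The scores of cell types, each the mean z score of the tested markers of a list, were related to a few members before adjustment only. *Smad7* had r = -0.80 with the endothelium score (permutation p adjusted over the 117, 0.130; Spearman coefficient -0.81) and r = -0.77 with the fibroblast score (adjusted permutation p = 0.184; Spearman coefficient -0.73), and without the 2 tumors farthest in the score these were -0.60 and -0.71. *Tgfb3* had r = 0.72 with the epithelium score (adjusted permutation p = 0.254; Spearman coefficient 0.83), and r = 0.51 without the 2 farthest tumors. *Tgfb2* had r = 0.80 with the skeletal muscle score (adjusted permutation p = 0.130; Spearman coefficient 0.70), and r = 0.47 without wildtype replicates 5 and 1, so the size of the relation depends on those tumors. Over the larger lists, 5 of 10 epithelial, 8 of 10 fibroblast and 2 of 9 endothelial markers had a fold change above 0. In these lists 0 markers had an unadjusted limma p under 0.05. Among all tested genes 48.6% were below 0 and 2.28% had an unadjusted limma p under 0.05. The summed level of the muscle markers ranged from 803 to 11503 in wildtype and from 1840 to 5389 in gene trap tumors.

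The genes whose log2 values followed each member most closely were taken from the 14122 genes with a mean of at least 100, and the correlations over 10 tumors are a description with no test. *Tgfb1* was followed by *Plekhg5* (r = 0.97), and *Mtch1*, a mitochondrial carrier homolog (r = 0.94), with transcripts of 59.9% and 61.2% GC. *Tgfb2* was followed by the small heat shock protein gene *Cryab* (r = 0.95) and the tropomyosin gene *Tpm1* (r = 0.91), and *Tgfb3* by the tetraspanin gene *Cd63* (r = 0.95) and the histone deacetylase gene *Hdac5* (r = 0.95). *Tgfbr1* was followed by *Ercc6l2* and the surface protein gene *Cd109* (both r = 0.96, falling to 0.89 and 0.88 without gene trap replicate 2), and *Tgfbr2* by the oncostatin M receptor gene *Osmr* (r = 0.94) and the adhesion molecule gene *Chl1* (r = 0.90). *Smad2* was followed by *D5Ertd579e* and *Zfp62* (both r = 0.93), *Smad3* by the intermediate filament gene *Nes* (r = 0.85) and *Gmeb1* (r = 0.84), and *Smad7* by the collagen gene *Col9a3* and the collagen receptor gene *Ddr1* (both r = 0.93). For *Smad4* the closest genes were the processed pseudogenes *Gm4596* (r = 0.97) and *Gm9762* (r = 0.96), and without gene trap replicate 2 these fell to 0.85 and 0.79. Counts of pseudogenes are uncertain where reads can be shared with their parent genes.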

How the data were processed

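Labels describe 16 tumors, 8 per group, with total RNA isolated by Trizol and libraries made with a TruSeq stranded kit. Of 16 columns in the table, 10 carry the name of a labelled tumor and the other 6 were not used. The deposited signal is estimated counts per gene that the authors scaled by the median ratio method. The submitters' processing notes name Partek, STAR 2.7.8a, DESeq2 and mm39, and the counter is not given in the sources used here. Only 2.26% of values lay within 0.01 of a whole number, so reads and depth were not recovered. Column totals were 31995078 to 42153593. Genes averaging at least 10 over the 10 tumors were fitted on log2(value + 1) with limma 3.58.1 (R 4.3.3), with a variance trend and Benjamini-Hochberg adjustment over the 21034 genes, and checked on simulated data. Adding 1 shrinks the fold changes of low genes. Exact tests were two-sided over 252 arrangements of tumors, and correlations used 100000 permutations. Symbols, lengths, GC content and reference sequence came from GENCODE mouse release 21 on GRCm38, not the submitters' build. The p-values measure the spread between these tumor samples.

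The members and lists were chosen with earlier results of these data known. Named genes were the 9 members, *Resf1*, the 2 genes most like each member and defining markers. From each pathway list the 2 largest fold changes and any gene with an unadjusted p under 0.05 were also named. The myoepithelial markers and the remaining genes of the 2 shortest lists were named after their values were seen. Alternatives were the replicate block, each tumor left out, other filters, pseudocounts and lengths, quantile normalization, array weights, no variance trend and GC correction. Replicate numbers count tumor samples, and same-numbered tumors of both groups came from animals of different genotype. The number of animals within a group is not read from them. The correlations of same-numbered tumors' deviations lay between -0.156 and 0.149, so they showed no pairing by number and cannot exclude one.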

Additional observations from a re-analysis of the deposited data

Results flagged for a closer look

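Groups of 5 tumors were searched for a highest or lowest value with a wide gap to the rest, over 22 measures and 44 groups, and 4 were found where chance gives about 2.2. Gene trap replicate 2 had a *Smad4* value of 1323, where its group otherwise spanned 1772 to 1913. In wildtype replicate 5 the *Tgfb2* share of the 3 ligands was 10.4%, against 7.28% to 7.83% in the other wildtype tumors, and the *Tgfb3* share was 85.6%, against 87.5% to 88.1%. These 2 shares are parts of the same sum. Gene trap replicate 1 had a fibroblast score of 1.63, where its group otherwise spanned -0.429 to -0.124, and this tumor also had the lowest *Smad7* value of its group, at 369.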

How the results depend on the processing

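The comparison was refitted under 21 alternatives, and each gave 0 genes with an adjusted p under 0.05 and between 308 and 692 genes with an unadjusted p under 0.05. With the replicate block this number was 426. Both groups hold the same replicate numbers, so the block cannot change a log2 fold change and only the p-values can move. The unadjusted limma p of *Tgfb1* was 0.0786 with the block and 0.160 without it. For *Smad7* these were 0.170 and 0.173. The filters on the mean and the variance trend cannot change a log2 fold change either, so these alternatives could not turn a sign. The signs of *Tgfb1*, *Tgfb2*, *Tgfbr1*, *Smad3*, *Smad7* and *Resf1* held under all 21. The others turned: with array weights *Tgfb3* was at -0.049, *Tgfbr2* at 0.024 and *Smad2* at 0.043. With GC correction without gene trap replicate 2, an alternative added like the other GC corrections after seeing the data, *Tgfb3* was at -0.047, *Tgfbr2* at 0.031, *Smad2* at 0.031 and *Smad4* at 0.040. Leaving out each tumor in turn, the log2 fold change ranged from -0.064 to 0.11 for *Tgfb3*, -0.092 to 0.020 for *Tgfbr2*, -0.060 to 0.037 for *Smad2*, -0.10 to 0.031 for *Smad4*, 0.18 to 0.43 for *Tgfb1*, -0.21 to -0.07 for *Tgfb2* and 0.11 to 0.31 for *Smad7*. Between 0 and 1 of the 9 genes then had an unadjusted p under 0.05. These were *Tgfb1* without gene trap replicate 1 (0.0439), *Tgfb2* without wildtype replicate 1 (0.0449) and *Smad7* without wildtype replicate 4 (0.0423), and the smallest adjusted limma p in any of the 21 was 0.978. The causes were not tested.

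Of the other pathway genes, 0 to 4 had an unadjusted p under 0.05 when a tumor was left out, 4 of them without gene trap replicate 1 and 3 without wildtype replicate 3. The count was 2 with no filter on the mean and 1 with array weights, with a pseudocount of 10 and with quantile normalization. The *Tgfb3* share of the ligands was 90.7% per kilobase of all exons and 85.4% per kilobase of coding sequence. Per kilobase of all exons *Tgfb1* was at 73.1, *Tgfb2* at 221 and *Tgfb3* at 2890. With the coding length these were at 315, 1029 and 7910, so the shares of *Tgfb1* and *Tgfb2* depend on the length too. The difference in *Tgfb1* share ranged from 0.761 to 1.14 points with a tumor left out, and was 0.430 and 0.647 points with these lengths. Depth is unknown, so counting error cannot be separated from the spread between tumors.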

Other observations

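Gene trap replicate 2 was the lowest of the 10 tumors for 4 of the 9 pathway genes and the highest for 2. Over all tested genes it was the lowest for 21.8% and the highest for 22.4%. The 4 genes were *Tgfbr1*, *Tgfbr2*, *Smad2* and *Smad4*, at 0.811, 0.820, 0.824 and 0.723 times the median of the other 9 tumors, and *Tgfb1* and *Tgfb3* were at 1.66 and 1.33 times that median.

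After correction of the log2 values for GC content, which was chosen after seeing the data, the *Tgfb1* share of the ligands lay between 4.29% and 4.85% in wildtype and between 5.06% and 6.38% in gene trap tumors, so that the groups no longer overlapped. The difference was 0.829 percentage points with an exact permutation p of 0.00794, the smallest that 5 against 5 tumors can give. This p was not adjusted over the 3 shares. The share had been seen before this correction was chosen, and the log2 fold change of *Tgfb1* itself after the correction was 0.27, in a fit where 0 genes had an adjusted p under 0.05.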
